A study of Mus musculus with 2 samples.

Results

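The Mir135 family of the mouse consists of 3 microRNA genes, Mir135a-1, Mir135a-2 and Mir135b. They were chosen by gene symbol, and all 3 had a row in the count tables, among 1973 rows for microRNA genes. The small RNAs of hindbrain tissue, in a labelled size range below 30 nt, had been sequenced from mice of strain B6NCrl on the day of birth (postnatal day 0). Total RNA of 2 animals gave 1 library each, and these form the only group, with a single hindbrain per library. The animals are called pup 1 and pup 3 in the labels, which name no treatment or mutation, give no sex and place both pups under 1 donor record.

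A microRNA is cut from a hairpin precursor, and either the 5′ or the 3′ arm of the hairpin can be loaded into Argonaute, where bases 2 to 8, the seed, pair with target messenger RNAs. The miR-135 microRNAs are known as regulators of Wnt signalling, in which they can repress the tumour suppressor Apc. In the brain miR-135a is known for repressing Lmx1b, a transcription factor of the midbrain-hindbrain organiser, and for acting in serotonin neurons of the raphe nuclei, which lie in the hindbrain, on the serotonin transporter and an inhibitory serotonin receptor. miR-135a-5p and miR-135b-5p are known as members of a single seed family.

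The mature sequences that RefSeq lists for the 3 genes (build GRCm38.p6) are shown first, because their identity between loci bears on what the tables count. Capitals mark the seed.
miR-135a-5p (Mir135a-1 and Mir135a-2): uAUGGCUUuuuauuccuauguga
miR-135a-1-3p: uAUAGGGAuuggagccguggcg
miR-135a-2-3p: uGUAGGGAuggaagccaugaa
miR-135b-3p: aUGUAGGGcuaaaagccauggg
The 5′ arm of 23 nt was letter for letter the same at both Mir135a loci, on chromosomes 9 and 10. Outside the Mir135 family, no mature microRNA in the RefSeq table had the seed AUGGCUU. The 3′ arms each had a single locus and a seed of their own. Without gaps, miR-135a-1-3p and miR-135a-2-3p were identical at 15 of 21 overlapping bases. With miR-135b-3p shifted by 1 base, the values were 14 of 21 for miR-135a-1-3p and 16 of 21 for miR-135a-2-3p.

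A pair of hairpins from RefSeq shows where the arms lie, with the listed mature arms in capitals. They are shown because one has an arm shared with another gene and the other had the most counts of the family.
Mir135a-2 (chr10:92072086-92072185, minus strand): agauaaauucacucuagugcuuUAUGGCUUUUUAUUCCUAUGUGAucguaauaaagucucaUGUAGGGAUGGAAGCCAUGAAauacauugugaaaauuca
Mir135b (chr1:132198088-132198184, plus strand): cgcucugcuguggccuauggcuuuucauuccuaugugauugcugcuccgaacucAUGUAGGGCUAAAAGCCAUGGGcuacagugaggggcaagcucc
The longest stretch common to the hairpins of Mir135a-1 and Mir135a-2 was the run uauggcuuuuuauuccuaugugau of 24 nt, which is the 5′ arm and 1 base after it. Mir135b had at most 14 nt in common with Mir135a-1 and 13 nt with Mir135a-2. In windows of 20 nt, 5 of 71 windows of Mir135a-1 and 5 of 81 of Mir135a-2 occurred in another of the mouse hairpins in the table, on either strand. None of the 78 windows of Mir135b did.

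**Figure D1:**
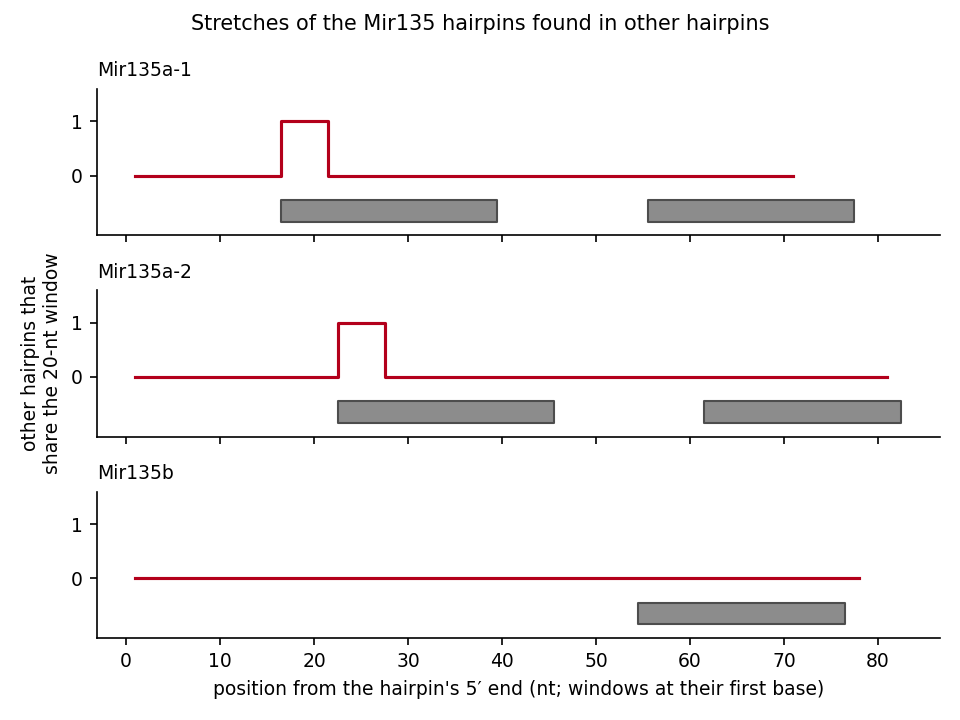
Number of other mouse hairpins in RefSeq that contain each window of 20 nt (y axis) by the position of its first base in the hairpin (x axis, nt), with grey bars for the mature arms listed there. Windows found in 1 other hairpin start within the 5′ arm of Mir135a-1 and Mir135a-2, and Mir135b has none.

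Reads with more than 1 mapped locus are not counted at any gene of these tables, and they made up 40.2% of the 5812558 reads of pup 1 and 42.0% of the 7175976 reads of pup 3. This reading of the tables was inferred from their layout. A read that lies wholly within the shared run of 24 nt matches both Mir135a loci and, on this reading, is counted at neither. The sources used here do not tell how many such reads there were, nor which arm the counted reads came from. The counts of the Mir135a genes are therefore not a measure of miR-135a-5p. Mir135b has no such stretch in the hairpins of the table. A genome sequence was not used here, so matches outside annotated hairpins were not tested.

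The 3 genes lie on different chromosomes and in unlike surroundings (GENCODE M21, assembly mm10). Mir135b (ENSMUSG00000065435.1, chromosome 1, 132198088 to 132198184, plus strand) lies in an intron of the protein-coding gene Lemd1 on its strand, and in an intron of the overlapping gene AC124108.1. Mir135a-2 (ENSMUSG00000065524.1, chromosome 10, 92072086 to 92072185, minus strand) lies in an intron of Rmst, a long noncoding RNA known from midbrain and from neurogenesis. Mir135a-1 (ENSMUSG00000065407.1, chromosome 9, 106154124 to 106154213, plus strand) lies in an intron of the noncoding gene D030055H07Rik. On the opposite strand, all 90 nt of it fall in an untranslated region of the last exon of Glyctk, which encodes glycerate kinase.

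The same-strand column summed to 2459757 counts in pup 1 and 3012320 in pup 3. CPM are counts scaled to these totals, and ± is the SD over the pups (n = 2). Genes of marker lists fixed for cell types were present, among them the neuronal Mir137 and Mir128-1 and the Hox-encoded Mir10a and Mir10b. The 6 genes of the Hox-encoded list, fixed for the caudal body axis, summed to 57126 CPM in pup 1 and 34281 CPM in pup 3. Nearly all of that sum was Mir10a and Mir10b. In this list 4 of 6 genes reached 10 CPM in both pups, Mir196a-2 did not, and Mir196a-1 was at 0 in both. Mir196a-1 and Mir196a-2 each have 1 arm identical to that of another gene, so their counts are no measure of that arm. The same holds for Mir128-1 of the neuronal list. Of the neuronal list, 3 of 6 genes reached 10 CPM in both pups, and the 3 Mir124a genes did not. Whether reads of the Mir124a genes were left out because they map to several loci was not tested, so their low counts do not show that the mature microRNA is scarce. The epithelial list, fixed because Mir135b is also known from epithelia, summed to 713 CPM in pup 1 and 862 CPM in pup 3. In it, 5 of 7 genes reached 10 CPM, Mir200a and Mir141 did not, and no gene was at 0 in both pups. The neuronal list summed to 18902 CPM in pup 1 and 23349 CPM in pup 3. By their sums, both lists were thus lower in pup 1, as Mir135b was, whereas the Hox-encoded list was higher there. Most of the epithelial sum was Mir203, at 555 CPM in pup 1 and 658 CPM in pup 3. The differences of these sums were not set against the spread between the pups. The blood list summed to 319.95 CPM in pup 1 and 334 CPM in pup 3, but its genes differed in opposite directions between the pups (log2 folds of 1.91 for Mir144, -1.88 for Mir451a and 0.39 for Mir223). The part of these lists in the level of Mir135b was not tested. In bulk tissue, fewer cells of a type and less RNA per cell cannot be told apart.

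Mir135b had by far the most counts of the family. It had 13603 counts in pup 1, or 5530 CPM (exact 95% Clopper-Pearson interval 5438 to 5624), and 21431 counts in pup 3, or 7114 CPM (7020 to 7210). The level was 6322 ± 1120 CPM, or 0.632% of all counts, and ranked 32 of the 1973 genes (38 in pup 1 and 31 in pup 3). Pup 3 was the higher one, and the intervals did not overlap. On the reading of the tables given above, the counts of the Mir135a genes leave out reads wholly within their shared run. The lead of Mir135b is therefore one of counted reads.

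Mir135a-2, the copy within Rmst, had 437 counts in pup 1, or 178 CPM (interval 161 to 195), and 558 in pup 3, or 185 CPM (170 to 201). Its level of 181 ± 5.36 CPM ranked 198, which is the median of the 395 genes that had at least 10 counts in either library. Mir135a-1, the copy opposite Glyctk, had 387 counts in pup 1, or 157 CPM (142 to 174), and 520 in pup 3, or 173 CPM (158 to 188). Its level of 165 ± 10.8 CPM ranked 204. For each of the Mir135a genes the intervals of the pups overlapped. All 3 genes reached 10 CPM in both pups, as 15.5% of the 1973 genes did, and none had a count on the opposite strand.

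**Figure D2:**
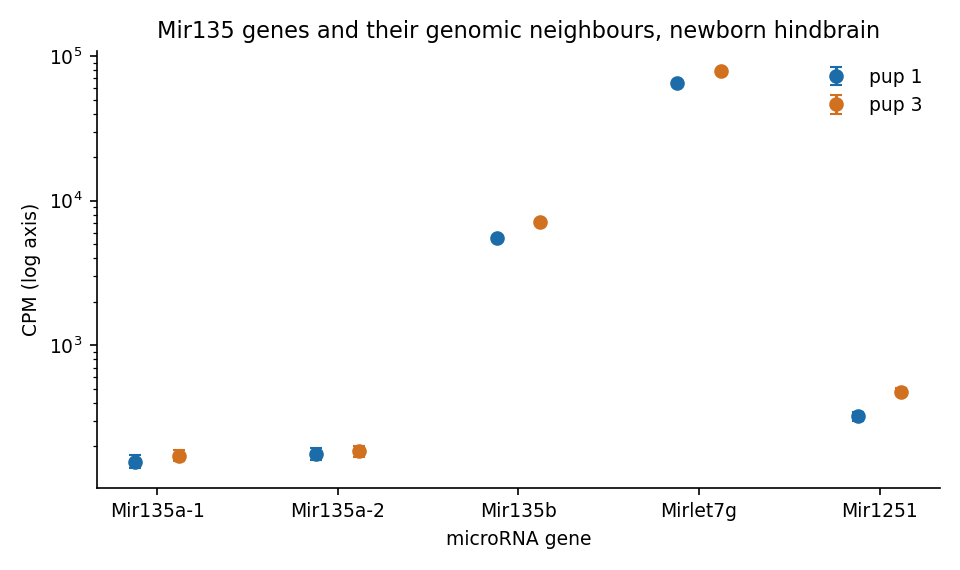
CPM on a log axis (y) of the Mir135 genes and of the microRNA genes near them (x) in pup 1 and pup 3, where bars are exact 95% counting intervals. Mir135b lies at 5530 and 7114 CPM, and the Mir135a genes lie between 157 and 185 CPM.

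The order of the levels was Mir135b, then Mir135a-2 and Mir135a-1, and the latter pair did not differ beyond counting error. This is an order of counted reads and not of the mature microRNAs. Divided by precursor length, Mir135b had 5701 CPM per 100 nt in pup 1 and 7334 in pup 3. On this scale Mir135a-2 had 178 and 185, and Mir135a-1 had 175 and 192, so that the order of the Mir135a genes changed between the pups. Summed over the family there were 14427 counts in pup 1 and 22509 in pup 3, or 6669 ± 1136 CPM.

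The genes whose levels over the 2 pups were closest to those of each member, by distance of log2(CPM + 1), give a scale for these values. Mir106b at a distance of 0.08 and Mir744 at 0.09 were closest to Mir135b. Mir7j (0.05) and Mir6540 (0.11) were closest to Mir135a-2, and Mir216a (0.03) and Mir669c (0.15) to Mir135a-1. With 2 samples this is likeness of level alone.

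**Figure D3:**
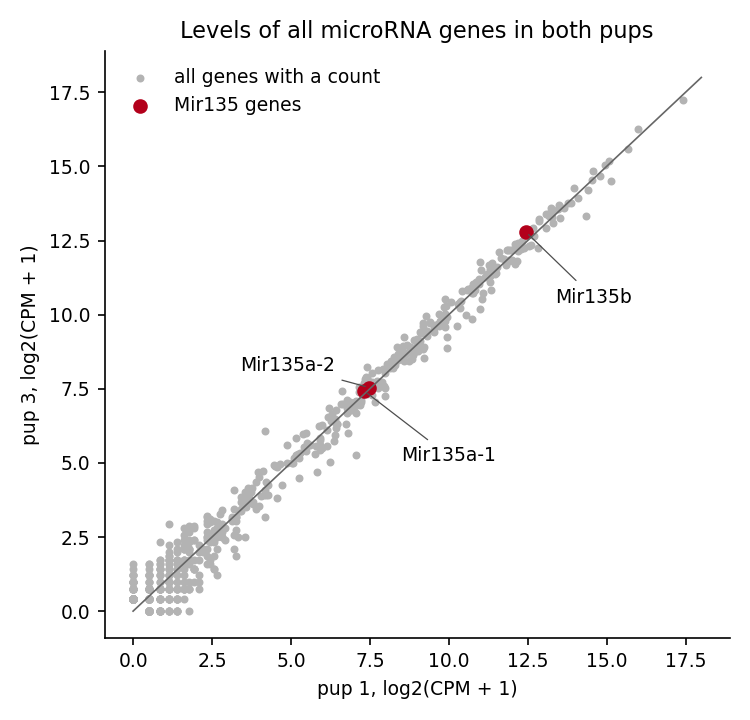
Levels of all microRNA genes with a count, as log2(CPM + 1), in pup 1 (x) and pup 3 (y), with the line of equal levels and the Mir135 genes in red. By counted reads, Mir135b lies among the highest genes, slightly above the line, and the Mir135a genes lie together near the middle of the range.

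Within the family, Mir135b held 94.3% of pup 1's counts (exact interval 93.9% to 94.7%) and 95.2% of pup 3's (94.9% to 95.5%). Mir135a-2 held 3.03% and 2.48%, and Mir135a-1 held 2.68% and 2.31%. The composition differed between the 2 libraries (Fisher's exact test of 2 pups by 3 genes, two-sided, p = 0.000427), and the Mir135b share moved by less than 1 percentage point. On the reading of the tables given above, reads wholly within the shared run are not in the Mir135a counts. These shares therefore describe the reads counted at each locus and not the abundance of the mature microRNAs.

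Ratios between genes were compared between the pups for 5 pairs, with Benjamini-Hochberg adjustment over the 5. Mir135b had 31.1 counts for each count of Mir135a-2 in pup 1 (interval 28.3 to 34.3) and 38.4 in pup 3 (35.3 to 41.8; Fisher's exact test, adjusted p = 0.00308). For each count of Mir135a-1 it had 35.1 (31.8 to 39.0) and 41.2 (37.8 to 45.0; Fisher's exact test, adjusted p = 0.0347). Mir135b was thus higher relative to both Mir135a genes in pup 3, by 0.30 and 0.23 on the log2 scale. Both changes were smaller than 0.48, the SD of such a change that the spread of genes between these pups gives if genes vary independently.

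The Mir135a genes had nearly equal counts in both pups. Mir135a-1 had 0.886 counts for each count of Mir135a-2 in pup 1 (interval 0.770 to 1.02) and 0.932 in pup 3 (0.825 to 1.05). Both intervals include a ratio of 1, and the change between the pups did not pass the test (0.07 on the log2 scale, Fisher's exact test, adjusted p = 0.610).

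The counts of other genes that share a mature arm can be set beside this pair. On the reading of the tables given above, reads wholly within an identical arm are counted at neither gene. The values below are therefore no measure of the shared arms. Among 582 genes with both arms in the RefSeq table, 53 had 1 arm identical to that of another gene, as the Mir135a genes do. These 53 had a median of 38.7 CPM (quartiles 2.88 and 441), and 18 of them were above Mir135a-2. The 513 genes with no shared arm had a median of 2.84 CPM (quartiles 0.369 and 225), and the 16 genes with both arms shared had a median of 0 CPM. Mir135b, for which the table lists 1 arm, is in none of these classes. The classes hold different genes, and the part of a shared arm in the difference of their medians was not tested. Counts of 11 pairs with exactly 2 loci and at least 10 CPM at each were set side by side. The higher gene exceeded the lower by 1.10 times for Mir135a-2 and Mir135a-1 in CPM (1.01 times per precursor length, where the order is turned), which was the smallest of the 11 ratios on either scale. In CPM the next were Mir125b-1 and Mir125b-2 at 1.16 and Mir7-1 and Mir7-2 at 1.36, the median was 2.93, and Mir92-1 and Mir92-2 had the largest ratio at 38.2. These ratios are a description without a test. Genes with 1 shared arm that lie outside the 11 pairs include Mir450-1 and Mir450-2, at 4.58 and 4.36 CPM. Mir181b-1 and Mir181b-2, at 8.25 and 731 CPM, also lie outside, so the smallest and largest ratios hold for the 11 pairs alone.

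**Figure D4:**
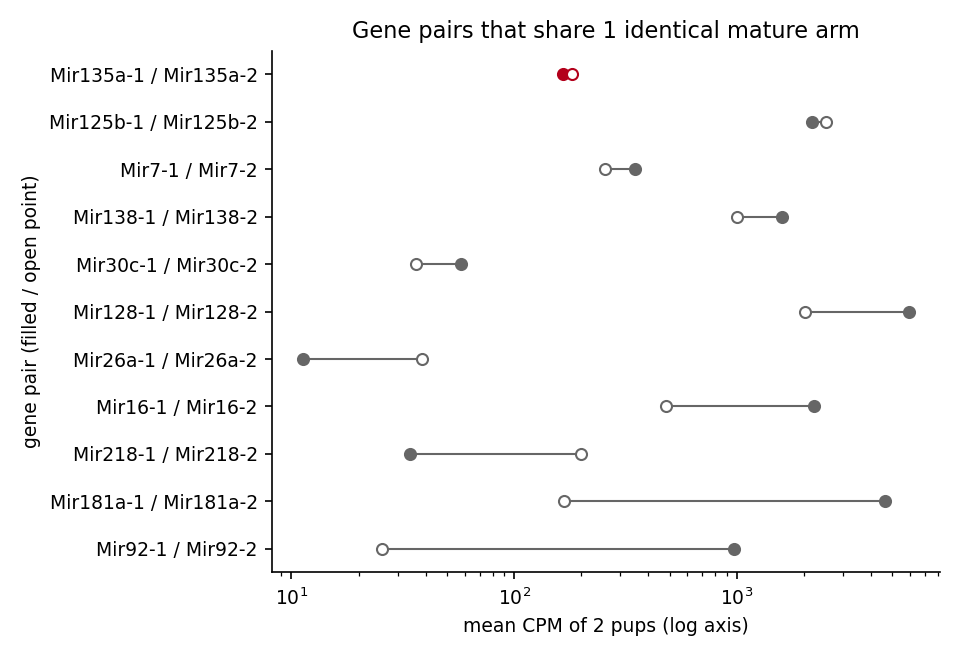
Mean CPM of the 2 pups on a log axis (x) for 11 gene pairs that have 1 identical mature arm (y). The pairs have exactly 2 loci and at least 10 CPM at each. The filled point is the first gene named and the open point the second. The Mir135a pair, in red, has the smallest ratio, 1.10, and the ratios reach 38.2.

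The pups were then compared gene by gene, with an exact binomial test of the counts given library totals scaled by the trimmed mean of M values (TMM). The test compares 2 libraries beyond counting error and has no replicate on either side. Of 395 genes tested, 185 (46.8%) differed at an adjusted p under 0.05, 101 (25.6%) higher in pup 3 and 84 (21.3%) lower. Of the Mir135 genes, 1 of 3 did, a count too small to be read against that share.

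Mir135b was higher in pup 3 by a log2 fold of 0.31 (exact interval 0.28 to 0.34, exact binomial test, adjusted p = 9.76e-86). This exceeds counting error, but it is 0.922 times the SD of 0.34 that the common biological coefficient of variation of 16.5% (edgeR, 361 genes) gives for folds between these pups, and 37.7% of the tested genes had a larger fold in either direction. Mir135a-1 had a log2 fold of 0.08 (interval -0.11 to 0.27, exact binomial test, adjusted p = 0.581). Mir135a-2 had 0.01 (interval -0.18 to 0.19, exact binomial test, adjusted p = 0.984), and 98.2% of the tested genes had a larger fold. By counting error alone, these intervals bound the log2 fold between the libraries at -0.11 and 0.27 for Mir135a-1 and at -0.18 and 0.19 for Mir135a-2. They do not cover the spread between pups, for which the SD of folds is 0.34.

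The nearest microRNA genes were described next. Within 50 kb of a member there was 1, Mirlet7g of the let-7 family, which lies 24627 nt from Mir135a-1 on its strand, in an intron of Wdr82. Mirlet7g reached 65498 CPM in pup 1 and 78957 CPM in pup 3. Per count of Mir135a-1 that was 416 counts in pup 1 (377 to 461) and 457 in pup 3 (420 to 499). That ratio did not differ between the pups at the threshold (Fisher's exact test, adjusted p = 0.206, a change of 0.14 on the log2 scale).

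Rmst holds another microRNA gene besides Mir135a-2. Mir1251 (ENSMUSG00000093227.1, chromosome 10, 92137140 to 92137223, minus strand) lies 64955 nt away, also in an intron. It had 798 counts in pup 1, or 324 CPM, and 1445 in pup 3, or 480 CPM. Its log2 fold of 0.51 (interval 0.39 to 0.64, exact binomial test, adjusted p = 2.01e-15) was 1.52 times the SD of folds between the pups. Mir1251 had 1.83 counts for each count of Mir135a-2 in pup 1 (interval 1.62 to 2.06) and 2.59 in pup 3 (2.35 to 2.86; Fisher's exact test, adjusted p = 3.85e-05). The ratio of the microRNA genes of Rmst thus changed by more than counting error, by 0.50 on the log2 scale, or 1.06 times the SD of such changes. Whether reads left out at Mir135a-2 bear on this was not tested.

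MicroRNAs of the processes in which miR-135 is known were taken from 3 short lists. Of the serotonin list, Mir16-1 and Mir16-2, whose product miR-16 is known to act on the serotonin transporter, had 2213 ± 560 and 479 ± 154 CPM. Both were lower in pup 3, with log2 folds of -0.58 and -0.72 (exact binomial test, adjusted p = 3.55e-103 and 1.28e-35). Mir96, known for acting on a serotonin receptor, had 285 ± 9.89 CPM and a log2 fold of 0.02 (exact binomial test, adjusted p = 0.921). In this list 0 of 3 genes were higher in pup 3, 2 were lower and 1 did not pass, with a median log2 fold of -0.58 against 0.02 over all 395 genes, of which 25.6% were higher and 21.3% lower. The list holds 3 genes, and Mir16-1 and Mir16-2 encode 1 mature microRNA. Its arm miR-16-5p is identical at both loci, so the counts of these genes are no measure of miR-16.

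Of 7 genes listed for the midbrain-hindbrain boundary and midbrain, 6 had a row, 4 were tested, 0 were higher in pup 3 and 2 were lower, with a median log2 fold of -0.11. That 2 of 4 passed is near the 46.8% called among all tested genes. Mir9-3, whose product is known from the progenitors that flank the boundary, fell from 524 CPM in pup 1 to 433 CPM in pup 3 (log2 fold -0.33, exact binomial test, adjusted p = 2.39e-08). Mir34c was lower by a smaller fold (-0.19, exact binomial test, adjusted p = 8.46e-20), and Mir34b (-0.03) and Mir132 (0.04) did not pass. Mir9-2 with 3 and 5 counts and Mir133b, known from midbrain dopamine neurons, with 5 counts in each pup were too low to test. Both listed arms of Mir9-2 and Mir9-3 are identical to arms of other genes, so their counts are no measure of miR-9.

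Of 8 genes listed for Wnt signalling, 7 had a row and were tested, 3 were higher in pup 3, 2 were lower and 2 did not pass, with a median log2 fold of 0.14. Over all tested genes 46.8% were called, 25.6% higher and 21.3% lower. Mir27a (log2 fold 0.47), Mir27b (0.32) and Mir29a (0.14) were higher in pup 3, while Mir34a (-0.38) and Mir34c (-0.19) were lower. Mir200a, with 10 and 16 counts, and Mir34b did not pass. By counts of reads mapped to 1 locus, per precursor length, Mir135b, at 6518 CPM per 100 nt, was above every gene of the 3 lists that had a row, of which Mir34c, at 5044, was the highest. This is no order of the mature microRNAs, since Mir16-1 and Mir16-2 have 1 arm and Mir9-2 and Mir9-3 both arms at other loci too. On this scale the Mir135a genes, at 183 for Mir135a-1 and 181 for Mir135a-2, were above Mir34b, Mir200a, Mir9-2 and Mir133b and below the others.

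**Figure D5:**
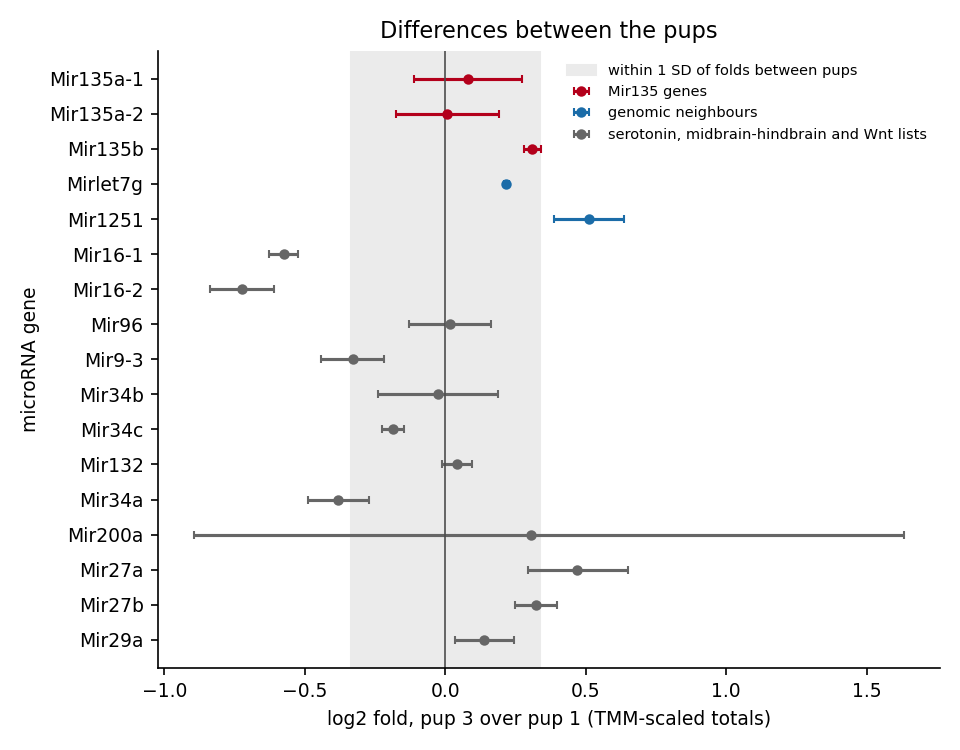
Log2 fold of pup 3 over pup 1 (x) for the Mir135 genes, their genomic neighbours and the tested genes of the 3 lists (y), where bars are exact 95% counting intervals and the grey band is 1 SD of folds between the pups, 0.34 either way. The points of the Mir135 genes lie within the band, and those of Mir1251, Mir16-1, Mir16-2, Mir34a and Mir27a lie outside it.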

How the data were processed

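The authors made raw read counts per gene from alignments to mouse assembly mm10 with GENCODE release M4, per the text listings deposited beside them. How reads were trimmed, aligned and counted is not given in the sources used here. Every table has 3 count columns. The first equals the sum of the others at every gene, and the second, taken as the strand of the gene, was used. The 4 rows that name no gene (57.7% and 58.0% of reads in pups 1 and 3 with unmapped, multimapped and unassigned reads) were left out of totals.

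Symbols came from GENCODE M21 (1894 of 1973 identifiers matched) and sequences from RefSeq GRCm38.p6, matched by symbol for all 3 members and for 916 genes with a mature sequence. The lists and members were chosen with earlier results of these data known. Named genes were the members, microRNA genes within 50 kb or in the same host gene, the 2 genes closest in level to each member, and the listed genes. Shared-arm pairs were named after their values were seen. Computation used edgeR 4.0.16, DESeq2 1.42.0 (size factors only), R 4.3.3 and scipy 1.17.1. Genes needed 10 counts in either library to be tested, and folds used a prior of 0.5 counts. The binomial test was checked on simulated data with counting error alone, which does not tell how it behaves with the spread between these pups. Intervals cover counting error only, since each pup gave 1 library. Reads carry no molecular identifiers, so amplified copies of a molecule could not be left out of the counts. A quasi-likelihood fit between single pups has no residual degrees of freedom and was not made. Other scalings, no count filter, both strands, length scaling and leaving out each pup were tried.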

Additional observations from a re-analysis of the deposited data

Results flagged for a closer look

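Reads that map to several loci, which enter no count used here, were 40.2% of pup 1's reads and 42.0% of pup 3's. The Mir135a genes have an arm at 2 loci, and how many of these reads belong to miR-135a-5p was not tested.

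A pair of listed genes without a row of their own had reads in the opposite-strand column, above the 3 counts that a count of 0 allows. At Mir142b, where Mir142 of the Wnt list lies, there were 592 in pup 1 and 1178 in pup 3. At Gm25641, where Mir9-1 of the midbrain-hindbrain list lies, there were 233 and 291. The Mir135 genes had none.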

How the results depend on the processing

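No paired analysis was possible because there is 1 group. Over 51 comparisons of a result with an alternative, 49 kept their direction and call, or stayed within 1 SD or 1.5 times of the count. Part of these comparisons could not come out otherwise. With 2 pups, each lies within 1 SD of their mean. Shares over both strands equal the main ones, since the members had no opposite-strand counts. Without the count filter the folds are the main folds, and only the adjusted p could change. Mir135b stayed higher in pup 3 under plain totals, DESeq2 size factors, no count filter and both strands (log2 fold 0.29 to 0.36, highest adjusted p 1.44e-76, exact binomial test), and Mir135a-1 stayed without a call (0.06 to 0.13). With counts of both strands the log2 fold of Mir135a-2 was -0.0103 (exact binomial test, adjusted p = 0.979), so it has no direction, and its level was 176 CPM, as the total of that column is larger. From 177 to 196 genes differed between the pups. Leaving out a pup left levels between 5530 and 7114 CPM for Mir135b, 178 and 185 for Mir135a-2, and 157 and 173 for Mir135a-1. With 2 libraries, the spread of a single gene is poorly known.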
